A study of Homo sapiens with 16 samples.

Results

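The BTG and TOB antiproliferative genes were examined here together with the deadenylases that their proteins bind: BTG1, BTG2, BTG3, TOB1, TOB2, CNOT7 and CNOT8. The members were chosen by gene name, and all 7 were found in each of the authors' 4 deposited tables, out of 19344 genes that all 4 tables share. The tables describe poly(A) RNA of U2OS, an established human osteosarcoma line, sequenced as 16 libraries in 4 groups of 4. The groups were siControl with DMSO, siControl with Nutlin-3a, siRFX7 with DMSO and siRFX7 with Nutlin-3a, where siControl is a control siRNA and siRFX7 a siRNA against the transcription factor RFX7. Nutlin-3a, which releases p53 from its inhibitor MDM2, was given at 10 µM for 24 h, and DMSO is its solvent. All groups shared the cell line and the transfection of an siRNA, and RFX7 was targeted under 1 siRNA label, so effects of that siRNA on other transcripts cannot be told apart from those of the RFX7 knockdown.

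BTG and TOB proteins share an amino-terminal domain that binds the paralogous deadenylases CNOT7 and CNOT8, which are the CAF1 catalytic subunits of the CCR4-NOT complex. CCR4-NOT shortens the poly(A) tails of messenger RNAs, a step that limits both their translation and their lifetime. TOB1 and TOB2 also bind the cytoplasmic poly(A)-binding protein, and forced expression of BTG or TOB proteins slows cell division. BTG2 is an established p53 target gene.

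The tables hold group comparisons and no value of a single library, so each error below is the authors' standard error (SE) of a comparison of 4 libraries with 4. Nothing in the labels says that the 4 libraries of a group came from separate cultures, so the p-values measure the spread between these libraries. Base means, the authors' mean normalised counts, summed to between 27946376 and 35311111 per table. RFX7 was lower with its siRNA in the authors' deposited tables, by a log2 fold change of -2.42 ± 0.07 (SE) under DMSO and -2.37 ± 0.07 (SE) under Nutlin-3a. The bone-lineage markers RUNX2, SPARC, COL1A1 and ALPL had base means of at least 283 in all 4 of the authors' deposited tables, while COL1A2 stayed between 11.0 and 13.2. Of the markers of other cells, EPCAM was between 184 and 214, DES between 7.73 and 10.6, PTPRC and PECAM1 were listed in 1 table at 5.21 and 2.66, and ALB was in none of the authors' deposited tables. EPCAM, an epithelial gene, was higher with siRFX7 by 0.54 ± 0.11 (SE) and 0.41 ± 0.11 (SE) under DMSO and Nutlin-3a, per the authors' deposited tables, and its part in the results was not tested.

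In GENCODE 29 on GRCh38, the assembly that the submitters' processing notes call hg38, the 7 genes lie on 7 chromosomes. BTG1 (ENSG00000133639) is at chr12:92140278-92145897 on the minus strand, BTG2 (ENSG00000159388) at chr1:203305491-203309602 on the plus strand and BTG3 (ENSG00000154640) at chr21:17593653-17612947 on the minus strand. TOB1 (ENSG00000141232) is at chr17:50862223-50867978 and TOB2 (ENSG00000183864) at chr22:41433492-41447023, both on the minus strand. CNOT8 (ENSG00000155508) is at chr5:154857553-154876793 on the plus strand, and CNOT7 (ENSG00000198791) is on chromosome 8.

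The level of each member in each group was worked out from the base mean and the log2 fold change of a table, and is called the implied level, in normalised counts. BTG2 stood at 1180 in siControl with DMSO, 7205 in siControl with Nutlin-3a, 1033 in siRFX7 with DMSO and 6542 in siRFX7 with Nutlin-3a. Both Nutlin-3a groups were thus far above both DMSO groups. BTG1 was at 424 in siControl with DMSO, 673 in siControl with Nutlin-3a, 564 in siRFX7 with DMSO and 642 in siRFX7 with Nutlin-3a. Its lowest level was that of siControl with DMSO, and the other groups lay closer together. TOB1 was at 1712 in siControl with DMSO, 2551 in siControl with Nutlin-3a, 1586 in siRFX7 with DMSO and 1713 in siRFX7 with Nutlin-3a. Here the single high group was siControl with Nutlin-3a.

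CNOT7 was at 4546 in siControl with DMSO, 3796 in siControl with Nutlin-3a, 7010 in siRFX7 with DMSO and 5646 in siRFX7 with Nutlin-3a, so both siRFX7 groups were above both siControl groups. The remaining members stayed within narrower ranges. CNOT8, the paralog of CNOT7, ranged from 1477 to 1711, BTG3 from 3229 to 3447 and TOB2 from 2966 to 3312. These implied levels carry no spread between libraries, so whether groups overlapped library by library is not known.

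**Figure D1:**
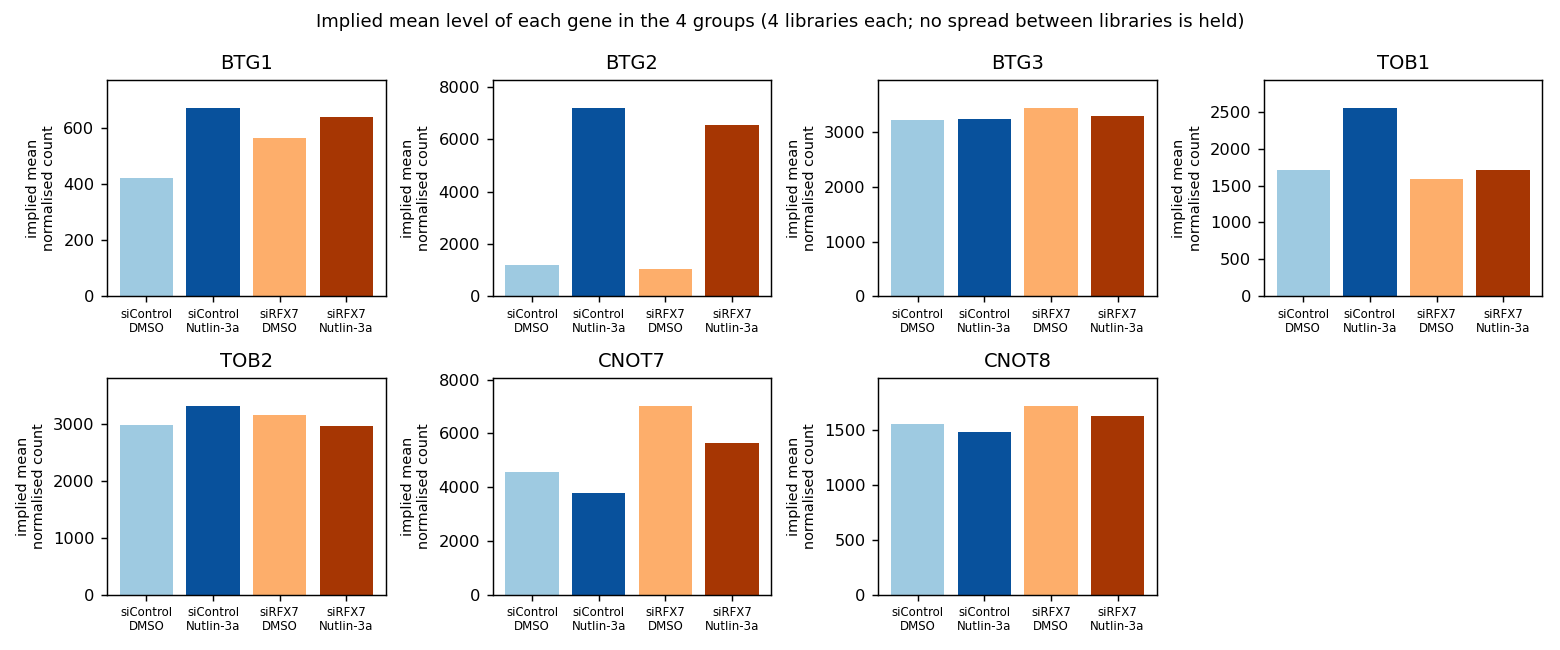
Implied mean level (vertical axes, normalised counts, each starting at 0) of the 7 genes in the 4 groups of 4 libraries, with no error bars because single libraries are not held in the tables. BTG2 is high in both Nutlin-3a groups (7205 and 6542), TOB1 in siControl with Nutlin-3a (2551), and CNOT7 in both siRFX7 groups (7010 and 5646).

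To compare genes, the implied level was divided by the length of all exons of the gene in GENCODE 29. In siControl with DMSO the order per kilobase was BTG3 (1400), TOB1 (679), TOB2 (654), BTG2 (428), CNOT7 (415), CNOT8 (394) and BTG1 (87.4). With Nutlin-3a in siControl, BTG2 rose from the fourth place to the first, at 2613 per kilobase, ahead of BTG3 at 1410 and TOB1 at 1012. BTG1 stayed last of the 7 in all 4 groups, between 87.4 and 139 per kilobase. Because no spread between libraries is held, the order of close neighbours such as TOB1 and TOB2, or BTG2, CNOT7 and CNOT8 under DMSO, cannot be tested. The exon length counts every annotated exon of a gene, whether or not it is used in U2OS.

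The stretches just upstream of BTG2, the member with the highest response to Nutlin-3a, and of BTG1 and TOB1, whose responses differed with siRFX7, are printed below. They come from RefSeq's promoter windows on GRCh38.p14 and end where the GENCODE 29 gene begins. Capitals mark tetramers that begin with C, end with G and hold only A or T between them, on either strand, which can form the core of a p53 half-site.
BTG2, chr1:203305269-203305490, plus strand: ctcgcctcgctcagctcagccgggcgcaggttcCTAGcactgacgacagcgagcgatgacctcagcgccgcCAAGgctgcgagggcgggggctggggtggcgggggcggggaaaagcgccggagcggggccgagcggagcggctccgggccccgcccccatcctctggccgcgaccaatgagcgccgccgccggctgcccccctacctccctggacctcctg
BTG1, chr12:92145898-92146096, minus strand: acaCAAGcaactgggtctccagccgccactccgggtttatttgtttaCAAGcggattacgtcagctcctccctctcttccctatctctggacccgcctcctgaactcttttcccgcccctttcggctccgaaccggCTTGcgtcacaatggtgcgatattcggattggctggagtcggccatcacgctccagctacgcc
TOB1, chr17:50867979-50868228, minus strand: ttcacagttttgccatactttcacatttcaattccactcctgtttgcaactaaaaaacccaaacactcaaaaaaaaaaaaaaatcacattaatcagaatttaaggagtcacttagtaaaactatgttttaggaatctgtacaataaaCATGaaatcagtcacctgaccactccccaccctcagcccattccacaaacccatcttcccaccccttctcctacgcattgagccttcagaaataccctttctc

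These stretches differ in composition, with 76.1% G and C for BTG2, 57.8% for BTG1 and 38.4% for TOB1. The BTG2 stretch holds 2 core tetramers, the BTG1 stretch 3 and the TOB1 stretch 1. Such tetramers are common, since 95.4% of 35116 RefSeq promoter windows of 300 bases hold at least 1. RefSeq windows were found for 6 of the 7 genes, 9 windows in all, and 8 of the 9 hold a tetramer. The whole p53 half-site of 10 bases, RRRCWWGYYY (R is A or G, W is A or T, Y is C or T), was searched without mismatches. It was present in 6.63% of all windows and in none of these 9. The RFX half-site GTTNCCA, read on both strands and present in 15.8% of all windows, was likewise in none of the 9. Sites with mismatches or outside these windows were not searched, so the members may still hold p53 or RFX sites. In the 3′ UTRs of their GENCODE 29 basic transcripts, none of the 7 members carried GTATCTA or GACGTA, words that an earlier scan of these same log2 fold changes had linked to genes lower and higher with siRFX7. Of 11075 genes scanned, 8.69% carried the first word and 5.28% the second.

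The first comparison asked how p53 activation changed these genes when RFX7 was present. With siControl, 4 of 7 members rose and 1 fell on Nutlin-3a treatment, at an adjusted p under 0.05 in the authors' deposited table. Over all genes of that authors' deposited table, 18.3% were called higher and 19.6% lower. Those genes reach down to a base mean of 2.46, while BTG1, the scarcest member, stood at 549 there. Genes with higher counts tend to have smaller SEs and are called more readily. The all-gene shares here and below are not matched to members or lists by level, and enrichment was not tested. The median log2 fold change was 0.15 over the 7 members and 0.01 over all genes. BTG2 rose 6.10-fold, with a log2 fold change of 2.61 ± 0.04 (SE) in the authors' deposited table. Its adjusted p is listed as 0 there, being too small to be held, and its log2 fold change exceeded that of 99.1% of the genes in the authors' deposited table. BTG1 rose 1.59-fold (log2 0.67 ± 0.07 SE, adjusted p 3.82e-19) and TOB1 rose 1.49-fold (log2 0.58 ± 0.05 SE, adjusted p 5.55e-25) in the authors' deposited table. TOB2 rose least, by 0.15 ± 0.05 (SE, adjusted p 0.0112) on the log2 scale in the authors' deposited table, and passed a threshold of 0.05 but not one of 0.01.

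The deadenylases did not follow the BTG and TOB genes upward. In siControl, CNOT7 fell by 0.26 on the log2 scale (SE 0.04, adjusted p 1.09e-08) in the authors' deposited table. CNOT8 was at -0.07 ± 0.05 (SE, adjusted p 0.352) and BTG3 at 0.01 ± 0.04 (SE, adjusted p 0.888) in the same authors' deposited table, and neither passed. The 95% interval for BTG3, -0.07 to 0.09, is narrow in the authors' deposited table, so a response of the size seen for BTG1 lies outside it. BTG4, the remaining BTG gene, was scarce, with a base mean of 48.0 and a log2 fold change of 0.96 ± 0.22 (SE, adjusted p 5.57e-05) in the authors' deposited table.

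In siRFX7, Nutlin-3a raised 2 of 7 members and lowered 1 in the authors' deposited table, where 18.7% of all genes were called higher and 20.3% lower. BTG2 rose 6.33-fold (log2 2.66 ± 0.05 SE, adjusted p listed as 0) in the authors' deposited table for siRFX7, and CNOT7 fell by 0.31 (SE 0.04, adjusted p 1.25e-12). BTG1 rose 1.14-fold (log2 0.19 ± 0.08 SE, adjusted p 0.0401) in the authors' deposited table for siRFX7, and would not pass a threshold of 0.01. TOB1 was at 0.11 ± 0.06 (SE, adjusted p 0.105) in that authors' deposited table and did not pass. TOB2 was at -0.09 ± 0.06 (SE, adjusted p 0.274), BTG3 at -0.06 ± 0.06 (SE, adjusted p 0.441) and CNOT8 at -0.07 ± 0.05 (SE, adjusted p 0.288) in the authors' deposited table for siRFX7.

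**Figure D2:**
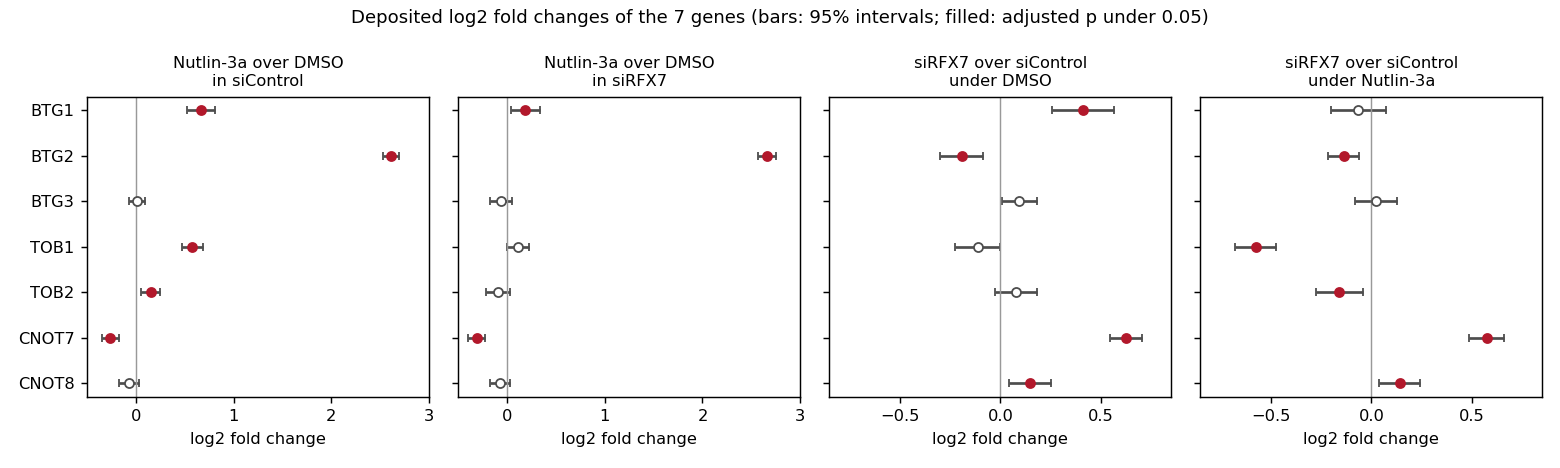
Log2 fold change (horizontal axes) of the 7 genes in the authors' 4 deposited comparisons, each of 4 libraries with 4, with 95% intervals as bars and filled points for an adjusted p under 0.05. The axes of the 2 Nutlin-3a panels span a wider range than those of the siRFX7 panels. BTG2 stands at 2.61 and 2.66 with Nutlin-3a, and CNOT7 at 0.62 and 0.57 with siRFX7.

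Dependence on RFX7 was examined by subtracting the Nutlin-3a response in siControl from that in siRFX7, using the authors' deposited tables of the Nutlin-3a responses, which share no library. The two-sided normal test with Benjamini-Hochberg adjustment over 21339 genes called 2 of 7 members, TOB1 and BTG1, both with a lower response in siRFX7. Over all genes, 0.764% were called for a response that was lower in siRFX7, and 0.173% for one that was higher. For TOB1 the difference was -0.46 ± 0.08 (SE, 95% interval -0.62 to -0.31, adjusted p 2.09e-06). Its Nutlin-3a response was 1.49-fold in siControl and 1.08-fold in siRFX7, from the authors' deposited tables. For BTG1 the difference was -0.48 ± 0.11 (SE, 95% interval -0.69 to -0.27, adjusted p 0.00143). CDKN1A, a gene outside the 7 members, was also called lower by this normal test (-0.26 ± 0.05 SE, adjusted p 0.000305). With siRFX7, CDKN1A was higher under DMSO by 0.60 ± 0.04 (SE) and under Nutlin-3a by 0.33 ± 0.04 (SE) in the authors' deposited tables.

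The differences of the remaining members did not pass. TOB2 had a difference of -0.24 ± 0.08 (SE, 95% interval -0.40 to -0.08), with an unadjusted p of 0.00305 and an adjusted p of 0.188 in this normal test. For BTG2 the difference was 0.05 ± 0.06, and its 95% interval of -0.07 to 0.18 bounds how far the BTG2 response could differ. CNOT7 had -0.05 ± 0.06 (95% interval -0.17 to 0.07), BTG3 -0.07 ± 0.07 (-0.21 to 0.07) and CNOT8 -0.01 ± 0.07 (-0.15 to 0.14), each with an adjusted p of 0.99997 in this normal test, as for BTG2. BTG4 had -0.50 ± 0.32, too wide an interval (-1.13 to 0.13) to separate from 0.

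**Figure D3:**
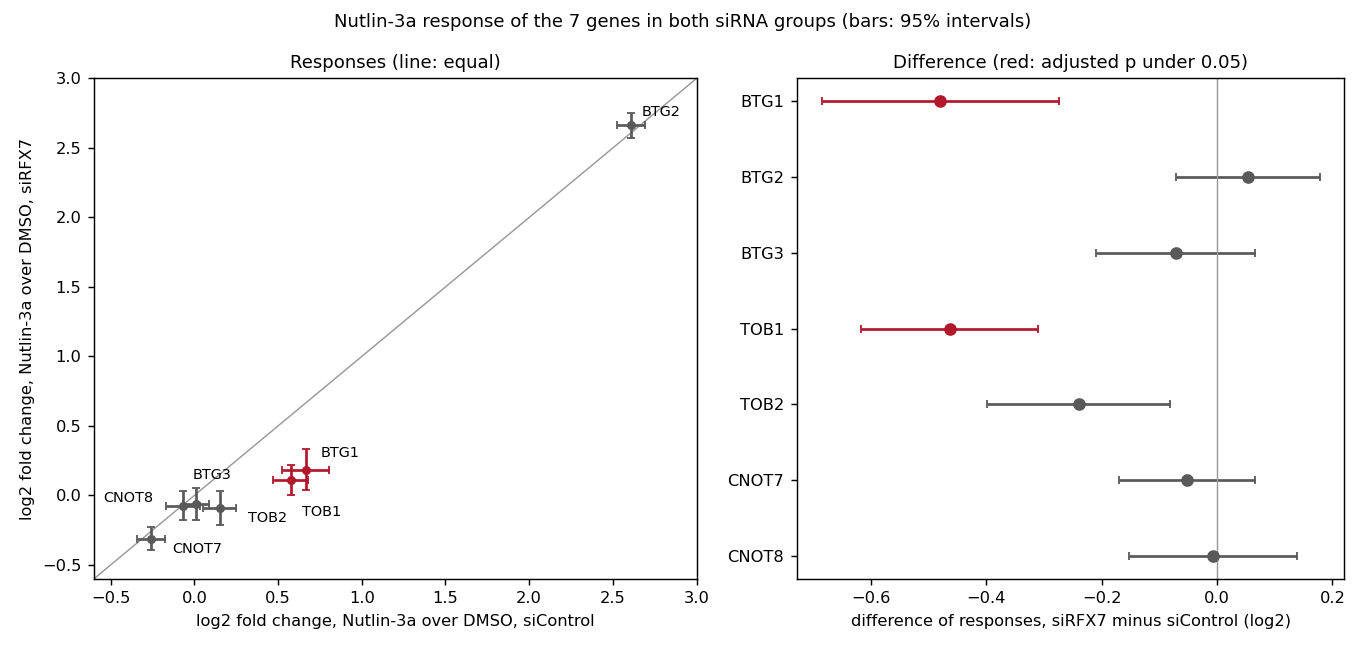
Left, log2 fold change with Nutlin-3a in siControl (horizontal) and in siRFX7 (vertical) for the 7 genes, with a line of equal response; right, the difference, siRFX7 minus siControl, on the log2 scale. Bars are 95% intervals and red marks an adjusted p under 0.05 for the difference, which TOB1 (-0.46) and BTG1 (-0.48) reached, while BTG2 (0.05) lies near the line of equal response.

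The effect of siRFX7 itself shows at which treatment TOB1 and BTG1 parted from siControl. Under DMSO, 3 of 7 members were higher with siRFX7 and 1 was lower in the authors' deposited table, where 19.9% of all genes were called higher and 17.5% lower. Under Nutlin-3a, 2 of 7 were higher and 3 lower in the authors' deposited table, where 17.2% of all genes were called higher and 15.4% lower. These comparisons share libraries with the Nutlin-3a comparisons, so they place the differences and are no second test of them.

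TOB1 was lower with siRFX7 under Nutlin-3a, at 0.671 of the siControl level (log2 -0.57 ± 0.05 SE, adjusted p 1.58e-26) in the authors' deposited table. Under DMSO, TOB1 was at -0.11 ± 0.06 (SE, adjusted p 0.114) in the authors' deposited table and did not pass. BTG1 had the opposite arrangement. It was higher with siRFX7 under DMSO, 1.33-fold (log2 0.41 ± 0.08 SE, adjusted p 1.29e-06), and at -0.06 ± 0.07 (SE, adjusted p 0.532) under Nutlin-3a, per the authors' deposited tables. The smaller BTG1 response in siRFX7 thus went with a higher level under DMSO, and the smaller TOB1 response with a lower level under Nutlin-3a.

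Of the 7 members, CNOT7 was raised most with siRFX7 under both treatments, while the decrease of TOB1 under Nutlin-3a was of the same size. CNOT7 was 1.54-fold higher under DMSO (log2 0.62 ± 0.04 SE, adjusted p 3.78e-52) and 1.49-fold higher under Nutlin-3a (log2 0.57 ± 0.04 SE, adjusted p 3.43e-36) in the authors' deposited tables. These values exceeded those of 96.5% and 96.0% of all genes in the authors' deposited tables. CNOT8 was higher by less, at 0.15 ± 0.05 (SE, adjusted p 0.0202) and 0.14 ± 0.05 (SE, adjusted p 0.0237) in the authors' deposited tables, and passed 0.05 but not 0.01. BTG2 was slightly lower with siRFX7, at -0.19 ± 0.05 (SE, adjusted p 0.00195) under DMSO and -0.14 ± 0.04 (SE, adjusted p 0.00147) under Nutlin-3a, per the authors' deposited tables. TOB2 was at 0.08 ± 0.05 (SE, adjusted p 0.263) under DMSO and lower under Nutlin-3a, at -0.16 ± 0.06 (SE, adjusted p 0.0261), in the authors' deposited tables. BTG3 passed in neither of the authors' deposited tables, at 0.10 ± 0.04 (SE, adjusted p 0.0818) and 0.02 ± 0.05 (SE, adjusted p 0.787).

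Some of these counts can hold reads of other loci. The processed pseudogene CNOT7P1 moved like CNOT7 with siRFX7, at 0.73 ± 0.12 (SE) under DMSO and 0.59 ± 0.14 (SE) under Nutlin-3a, per the authors' deposited tables. Its base mean was between 131 and 161, against at least 3995 for CNOT7 in the authors' deposited tables, and how reads were split between them is not given in the sources used here. VPS37A overlaps 243 exon bases of CNOT7 on the other strand, and was higher with siRFX7 by 0.13 ± 0.05 (SE) under DMSO and 0.19 ± 0.05 (SE) under Nutlin-3a, per the authors' deposited tables. LINC01619, on the same strand as BTG1, overlaps 503 exon bases of BTG1, and the antisense AC025164.1 overlaps 325. Both had base means of at most 4.72 in the authors' deposited tables. How reads in such overlaps were assigned is not given in the sources used here. Their low counts thus do not show whether BTG1 lost reads. BTG3-AS1 overlaps 280 exon bases of BTG3 with a base mean of at most 98.4 in the authors' deposited tables, and FAXDC2 overlaps 163 of CNOT8 with at most 6.26. TOB1-AS1, an antisense RNA that overlaps 281 exon bases of TOB1, was scarce, with base means between 14.3 and 29.05 in the authors' deposited tables. It rose with Nutlin-3a in siControl by 1.07 ± 0.28 (SE, adjusted p 0.000474) and was lower with siRFX7 in treated cells, at -0.88 ± 0.30 (SE, adjusted p 0.0148), in the authors' deposited tables. Its Nutlin-3a response in siRFX7 was 0.38 ± 0.40 (SE) in the authors' deposited table, and the difference of -0.69 ± 0.49 did not pass (adjusted p 0.997, normal test). The library kit keeps strand, but the strand setting of the counting is not given in the sources used here, so shared reads between TOB1 and TOB1-AS1 cannot be told apart from a parallel change.

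Genes of like pattern were ranked by Euclidean distance over the 4 deposited log2 fold changes, which come from 4 groups and so hold 3 independent contrasts. Candidates for each member were the 12176 other genes whose base mean reached 100 in every table. Genes without a name, or with only a clone-style name, were left out. For BTG2 the nearest were SYTL1 (distance 0.34), MDM2 (0.35), which encodes the ubiquitin ligase of p53, and CYFIP2 (0.40). For TOB1 they were PAK3 (0.16), RNF150 (0.16) and IP6K2 (0.25), and for BTG1 they were INHBA (0.15), MIF-AS1 (0.18) and RPS20P10 (0.18). MDM2 had responses of 2.89 and 2.76 in siControl and siRFX7 in the authors' deposited tables, and IP6K2 had 0.55 and 0.15. RPS20P10 is a processed pseudogene and MIF-AS1 an antisense RNA, so their counts are uncertain. The distances take no account of SEs, which for MIF-AS1 were between 0.31 and 0.52 in the authors' deposited tables. In the normal test, the differences of responses of IP6K2 and INHBA were called (adjusted p 1.03e-06 and 0.00169). Those of PAK3 (-0.48 ± 0.18 SE, adjusted p 0.311), RNF150 (-0.38 ± 0.19 SE, adjusted p 0.798), MIF-AS1 and RPS20P10 were not. For CNOT7 the nearest were QKI (0.08), SLC7A6 (0.08) and FGFRL1 (0.09), for TOB2 ID3 (0.04), FAM89B (0.04) and FAU (0.05), for CNOT8 PIAS2 (0.01), ZSCAN25 (0.02) and C8orf76 (0.02), and for BTG3 AGPAT1 (0.02), PARP6 (0.03) and GALNT16 (0.03). The small distances around BTG3, CNOT8 and TOB2 go with small changes, which many genes have.

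The rest of the CCR4-NOT complex went down with Nutlin-3a more often than up. Of 10 other subunits, 6 fell and 1 rose in siControl, with a median log2 fold change of -0.23 against 0.01 over all genes, and 6 fell and 2 rose in siRFX7, with a median of -0.21, in the authors' deposited tables. Over all genes, 19.6% fell and 18.3% rose in siControl, and 20.3% fell and 18.7% rose in siRFX7, in the authors' deposited tables. In siControl, CNOT9 fell by 0.41 (SE 0.04), CNOT10 by 0.31 (SE 0.05), CNOT3 by 0.28 (SE 0.06) and CNOT1, the scaffold of the complex, by 0.26 (SE 0.04) in the authors' deposited table. The 1 that rose, named after its value was seen, was TNKS1BP1, a protein associated with the complex, at 0.15 ± 0.04 (SE) in the authors' deposited table. CNOT7's decrease of 0.26 was thus of a size with that of the scaffold, and CNOT8 did not pass. With siRFX7 under DMSO, 4 of the 10 were higher and 2 lower in the authors' deposited table, with a median of 0.07. Under Nutlin-3a, 3 were higher and 1 lower, also with a median of 0.07, in the authors' deposited table. The shares of all genes called were 19.9% higher and 17.5% lower under DMSO, and 17.2% and 15.4% under Nutlin-3a. CNOT9 was higher under both (0.29 ± 0.04 and 0.29 ± 0.05 SE) and CNOT10 lower under both (-0.33 ± 0.04 and -0.28 ± 0.05 SE) in the authors' deposited tables, all below the size for CNOT7.

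Genes listed as other deadenylases and poly(A)-binding proteins moved both ways, and whether each listed enzyme acts as a deadenylase was not tested. Of 11 genes, 3 rose and 5 fell with Nutlin-3a in siControl, and 1 rose and 4 fell in siRFX7, with medians of -0.05 in both of the authors' deposited tables, against 18.3% of all genes higher and 19.6% lower in siControl and 18.7% and 20.3% in siRFX7. TOE1, a nuclear deadenylase, fell by 0.48 (SE 0.05) in siControl and by 0.65 (SE 0.06) in siRFX7, and ANGEL1 rose by 0.42 ± 0.07 (SE) and 0.33 ± 0.07 (SE) in the authors' deposited tables. With siRFX7, 6 of 11 were higher and 1 lower under DMSO (median 0.11), and 4 were higher and 1 lower under Nutlin-3a (median 0.06), in the authors' deposited tables. The shares over all genes were 19.9% higher and 17.5% lower under DMSO, and 17.2% higher and 15.4% lower under Nutlin-3a, with medians of -0.002 and -0.005. The lower gene was PAN2, the catalytic subunit of the PAN2-PAN3 deadenylase, at -0.34 ± 0.06 (SE) and -0.36 ± 0.07 (SE) in the authors' deposited tables, while its partner PAN3 was higher at 0.19 ± 0.05 (SE) and 0.20 ± 0.06 (SE). PABPC1, the main cytoplasmic poly(A)-binding protein gene, was higher with siRFX7 under Nutlin-3a by 0.15 ± 0.05 (SE) in the authors' deposited table.

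RNA-binding proteins that recruit CCR4-NOT formed the third list, of 17 genes. With Nutlin-3a, 6 rose and 6 fell in siControl (median 0.10), and 5 rose and 3 fell in siRFX7 (median 0.08), in the authors' deposited tables. The all-gene shares of these tables were 18.3% higher and 19.6% lower in siControl, and 18.7% and 20.3% in siRFX7. CPEB4, a cytoplasmic polyadenylation element binder, rose by 0.77 ± 0.06 (SE) and 0.64 ± 0.06 (SE), and ZFP36, which binds AU-rich elements, by 0.43 ± 0.08 (SE) and 0.53 ± 0.10 (SE) in the authors' deposited tables. ZFP36L2, of the ZFP36 family, fell by 0.47 (SE 0.06) and 0.55 (SE 0.05) in the authors' deposited tables. With siRFX7, 8 of 17 were higher under DMSO (median 0.12) and 7 under Nutlin-3a (median 0.10), and 0 were lower, in the authors' deposited tables. Over all genes, 19.9% and 17.2% were called higher and 17.5% and 15.4% lower under DMSO and Nutlin-3a. The highest of them under both treatments was TNRC6C, a GW182 protein of microRNA silencing, at 0.66 ± 0.08 (SE) and 0.68 ± 0.08 (SE) in the authors' deposited tables. CPEB4 was also higher, at 0.53 ± 0.07 (SE) and 0.40 ± 0.06 (SE) in the authors' deposited tables. So were CPEB3, at 0.52 ± 0.11 (SE) and 0.42 ± 0.10 (SE), and CPEB1, at 0.41 ± 0.13 (SE) and 0.56 ± 0.13 (SE), in the authors' deposited tables.

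PRMT1, an arginine methyltransferase that BTG1 and BTG2 bind, fell with Nutlin-3a by 0.22 (SE 0.03) in siControl and by 0.31 (SE 0.04) in siRFX7 in the authors' deposited tables. HOXB9, a homeobox factor that BTG2 binds, was higher with siRFX7 by 0.35 ± 0.05 (SE) under DMSO and 0.28 ± 0.05 (SE) under Nutlin-3a, per the authors' deposited tables. For the difference of the Nutlin-3a responses, none of the 41 genes of these lists, BTG4 included, was called by the normal test, and 4 had an unadjusted p under 0.05. Those 4, named after their values were seen, were CNOT1, CNOT11, TOE1 and NOCT, with differences of -0.17 ± 0.06, 0.13 ± 0.06, -0.17 ± 0.08 and -0.22 ± 0.09. Over all genes, this test called 0.764% lower and 0.173% higher. With shares so low, the absence of calls among 41 genes does not set the lists apart. The share of all genes with an unadjusted p under 0.05 was not counted, so the 4 cannot be set against it.

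**Figure D4:**
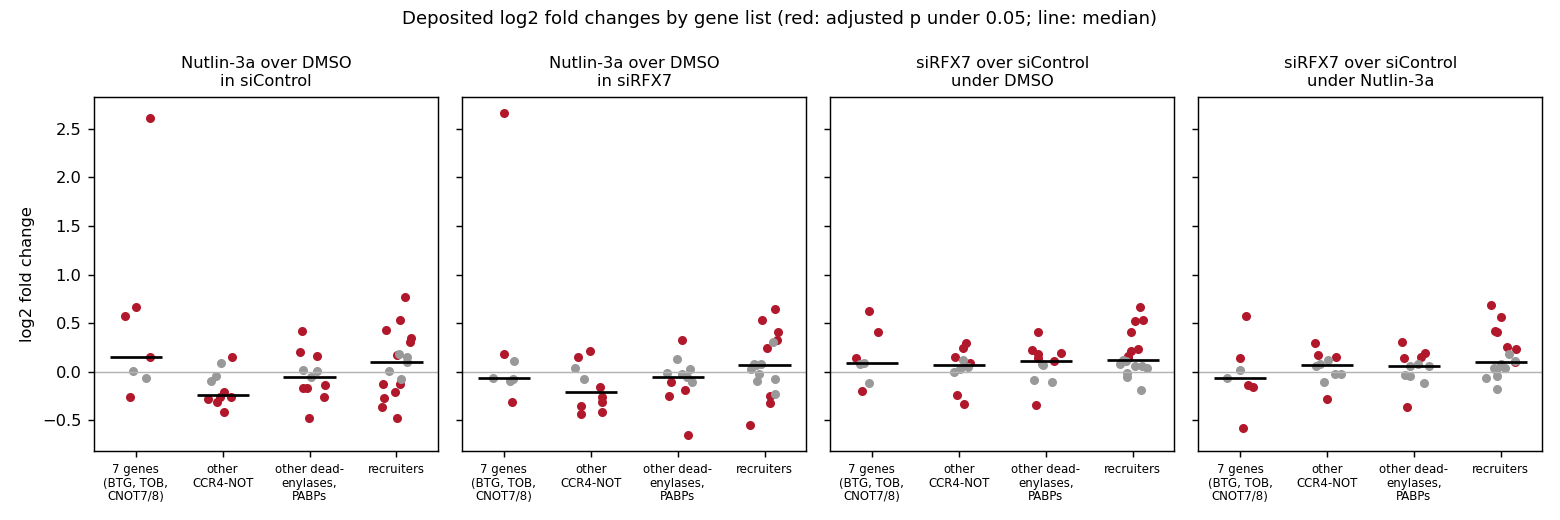
Log2 fold change (vertical axis) of the 7 genes and of 3 lists around them (10 other CCR4-NOT subunits, 11 other deadenylases and poly(A)-binding proteins, 17 recruiters) in the authors' 4 deposited comparisons; horizontal spread within a list is random. Red points have an adjusted p under 0.05 and black lines are medians, which for the CCR4-NOT subunits are -0.23 and -0.21 with Nutlin-3a.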

How the data were processed

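The data were the authors' 4 deposited DESeq2 tables of 2 groups each. Per the submitters' processing notes, the tools named include Trimmomatic 0.39, featureCounts 1.6.5 and DESeq2 1.20.0, and the build is hg38; an aligner is not given in the sources used here. Per the file headers, base mean is a signal (mean normalised count), and the log2 fold change, its SE, the Wald statistic (a score used for checks), the p-value and the adjusted p-value are the authors'. Whether fold changes were shrunken is not given in the sources used here. The adjusted p was over all genes of a table, and genes under 0.05 were called. Direction was set from RFX7, CDKN1A and MDM2, and by adding up the 4 tables around the loop of groups, which closed to within 0.00179 (log2) for every member. Differences of responses used the root of the summed squared SEs, a two-sided normal p and Benjamini-Hochberg adjustment over 21339 genes. The calculation was run on simulated data whose noise was drawn from these same SEs. That run cannot show whether the SEs themselves are right. Python 3.11.15, scipy 1.17.1 and pandas 2.3.3 were used. An implied level was the group mean that gives a table's base mean and fold change, with tables put on the scale of the siControl table by median ratios of 1.32, 1.11 and 1.18. All members were named; of each list, up to 4 called genes with the largest change and a base mean of at least 100 in a comparison were eligible, and not all are printed. For each member the 3 nearest genes were taken. Alternatives were a threshold of 0.01, a size of 0.25, a base mean of at least 100, the other tables, and statistics divided by their robust SD in 20 bins of base mean. Members and lists were chosen with earlier results of these data known.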

Additional observations from a re-analysis of the deposited data

Results flagged for a closer look

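The Nutlin-3a response differed between the siRNA groups for 2 members. It was lower in siRFX7 for TOB1, by a difference of -0.46 ± 0.08 on the log2 scale, and for BTG1, by -0.48 ± 0.11, both in the normal test of the difference over 21339 genes.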

How the results depend on the processing

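The differences of the responses of TOB1 and BTG1 stayed called in every alternative run (adjusted p 1.3e-06 to 0.00027 for TOB1 and 0.000884 to 0.00217 for BTG1), and TOB2 in none (0.120 to 0.517). Log2 fold changes put together from the other 3 tables moved by at most 0.00179, and implied levels from the siRFX7 tables by at most 0.157%. Both use the same libraries in other pairings, so such closeness was built in and is no independent check. The same holds for the alternative run that took the differences of responses from the siRFX7 tables. A size of at least 0.25 lowered the members called with siRFX7 from 4 to 2 under DMSO and from 5 to 2 under Nutlin-3a, and a threshold of 0.01 lowered the latter to 3. The same size lowered the list genes called with Nutlin-3a in siControl from 29 to 17, and with siRFX7 from 23 to 9 under DMSO and from 17 to 10 under Nutlin-3a, since fewer genes meet it by construction. The other counts stayed within 1.5 times. No paired analysis was possible because the tables hold no value of a single library; leaving out a replicate was not run for the same reason. Depth per library is unknown.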
